A study of Mus musculus with 9 samples.

Results

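The genes described here are the interferon-linked members of the mouse PARP family, Parp3, Parp8, Parp9, Parp10, Parp11, Parp12 and Parp14, together with Dtx3l, whose protein is the partner of Parp9. They were chosen by symbol, with no measured value in the rule, but with earlier results of these data known. All 8 were found among the 29288 genes of the count table, and all 8 passed the filter on low counts that left 18933 genes to test. The study asked how the activation of natural killer T (NKT) cells changes gene expression in the intestinal epithelium. Female WT C57BL/6J mice were given 2 µg of α-galactosylceramide (αGal), a glycolipid that activates NKT cells when CD1d presents it, or PBS, by intraperitoneal injection. Live EpCAM+ Ter119- CD31- CD45- cells were then sorted from crypt preparations of the proximal small intestine for bulk RNA-seq. The 3 groups of 3 mice were control (PBS, 18 h), 18h-αGal and 72h-αGal. PBS mice were sampled at 18 h only, so at 72 h the treatment and the time of sampling cannot be told apart, and both αGal groups were compared with the same 3 control libraries.

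PARP proteins move ADP-ribose from NAD+ onto proteins or nucleic acids, some as long chains and many, including Parp10, Parp11, Parp12 and Parp14, as a lone unit. Interferons act on epithelial cells through Janus kinases and STAT proteins. STAT dimers bind GAS elements, while the complex that holds Stat2 and Irf9 binds interferon-stimulated response elements (ISRE), and several PARP genes are known targets of this signalling in antiviral defence. NKT cells release interferon-γ when activated, and the intestinal epithelium carries receptors for it.

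The 8 genes lie on 5 chromosomes. In the GRCm39 assembly with GENCODE M39 annotation, all are protein-coding. Parp3 (ENSMUSG00000023249) is at chr9:106347521-106354159 on the minus strand, Parp8 (ENSMUSG00000021725) at chr13:116987380-117162073 on the minus strand and Parp10 (ENSMUSG00000063268) at chr15:76115374-76127648 on the minus strand. Parp11 (ENSMUSG00000037997) is at chr6:127423483-127491198 on the plus strand and Parp12 (ENSMUSG00000038507) at chr6:39063342-39095573 on the minus strand. The remaining 3 form a cluster on chromosome 16, with Parp14 (ENSMUSG00000034422) at chr16:35653231-35692003 on the minus strand, Dtx3l (ENSMUSG00000049502) at chr16:35746881-35759521 on the minus strand and Parp9 (ENSMUSG00000022906) at chr16:35758840-35792980 on the plus strand. Parp9 and Dtx3l are head to head, with annotated starts 681 bp apart and overlapping ends. The Parp14 start is 67518 bp from that of Dtx3l, and no other protein-coding gene lies between. The strand setting used in counting was not given in the sources used here, and the exons of Parp9 and Dtx3l overlap on opposite strands over 458 bp, which is 9.12% of the Parp9 exons and 8% of the Dtx3l exons. Parp10 shares 205 bp of exon with Plec on the same strand, 4.79% of its exons, and Parp12 shares 267 bp with the antisense transcript 4930599N23Rik, 6.13% of its exons.

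**Figure D1:**
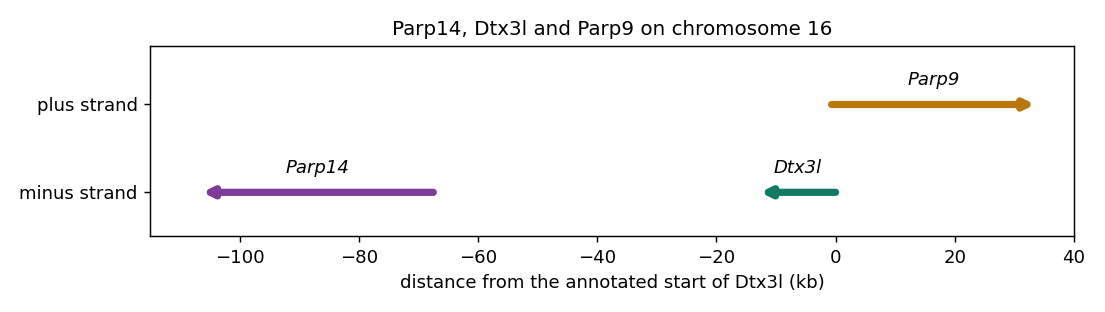
Map of the cluster on chromosome 16, with distance from the annotated Dtx3l start in kb on the x axis, the strand on the y axis, and arrows from each gene's start to its end in the direction of transcription. Parp9 and Dtx3l start 681 bp apart and run in opposite directions, and Parp14 starts 67518 bp from Dtx3l.

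The 250 bases before the annotated start are printed for Parp11, Dtx3l, Parp12 and Parp3, the 4 genes called at 18 h, and the bearing of promoter sequence on the changes was not tested. They come from RefSeq on GRCm38.p6, 5′ to 3′ on the gene's own strand. RefSeq windows were matched for 5 of the 8 genes, 6 windows in all since Parp11 has 2, and those of Parp9, Parp10 and Parp14 were not used here. Capitals mark letters that match, on either strand, the core of an ISRE (GAAA, NN and GAAA in a row) or the core of a GAS element (TTCNNNGAA).
Parp11, chr6:127446590-127446839, plus strand: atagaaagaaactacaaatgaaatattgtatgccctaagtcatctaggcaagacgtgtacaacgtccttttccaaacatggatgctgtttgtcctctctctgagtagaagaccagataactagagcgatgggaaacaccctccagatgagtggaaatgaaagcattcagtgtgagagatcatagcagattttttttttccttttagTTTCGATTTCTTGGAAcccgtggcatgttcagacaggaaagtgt
Dtx3l, chr16:35939028-35939277, minus strand: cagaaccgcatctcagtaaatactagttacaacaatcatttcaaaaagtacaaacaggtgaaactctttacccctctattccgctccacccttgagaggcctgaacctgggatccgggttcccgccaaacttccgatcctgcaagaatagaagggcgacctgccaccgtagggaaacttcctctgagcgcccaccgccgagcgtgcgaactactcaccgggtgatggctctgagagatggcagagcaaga
Parp12, chr6:39118350-39118599, minus strand: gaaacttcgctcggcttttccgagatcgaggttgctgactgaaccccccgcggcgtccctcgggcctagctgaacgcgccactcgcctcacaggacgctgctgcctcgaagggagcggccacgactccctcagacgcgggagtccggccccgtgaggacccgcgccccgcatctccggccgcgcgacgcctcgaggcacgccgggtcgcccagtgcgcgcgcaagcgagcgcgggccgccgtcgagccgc
Parp3, chr9:106476950-106477199, minus strand: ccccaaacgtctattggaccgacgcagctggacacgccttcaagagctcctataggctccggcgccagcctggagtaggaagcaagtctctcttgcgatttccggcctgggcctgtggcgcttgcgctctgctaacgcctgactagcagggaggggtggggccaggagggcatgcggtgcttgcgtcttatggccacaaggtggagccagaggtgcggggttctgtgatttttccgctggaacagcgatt
The Parp11 window held both cores, TTTCGATTTC on the reverse strand from 44 bases before the start and TTCTTGGAA from 37 bases before it, which overlap each other. The other 5 windows, including the second Parp11 window and that of Parp8, held neither set of letters. Of all 32851 RefSeq windows of this length, 2.98% held the ISRE core, 7.02% the GAS core and 0.332% both.

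Library totals ran from 8887861 counts in control replicate 3 to 32722293 in control replicate 1, so 3 counts, the limit that a count of 0 allows, stand for 0.0917 to 0.338 CPM, counts scaled to the library total. These limits cover counting error only. The 7 epithelial markers, such as Epcam and Vil1, summed to 4724 to 5974 CPM, and the 11 lymphocyte markers in the table to 3.49 to 8.60. Of these 11, the T cell marker Cd3e was at 0 counts in 5 libraries, among them all 3 controls, and had 2 to 21 in 72h-αGal. The cytotoxic cell marker Nkg7 was at 0 in 8. The B cell marker Ms4a1 had 0 counts in the controls, 2 to 10 in 18h-αGal and 10 to 23 in 72h-αGal, and Cd79b had 0 to 15, 16 to 60 and 12 to 30. Cd4 and Ncr1 had counts in control libraries only. Ptprc, Cd247 and Cd79a had counts in every library, of 6 to 50, 3 to 65 and 2 to 77. The 10 myeloid markers summed to 30.9 to 36.5 CPM in control, 29.4 to 44.9 in 18h-αGal and 43.2 to 60.9 in 72h-αGal libraries. Cd68 had the most counts of them in every library, but in control replicate 3 it had 110 against 104 for Cd14. The 8 endothelial and fibroblast markers in the table summed to 4.16 to 5.51 CPM in control libraries, above the 1.25 to 1.67 and 1.25 to 2.58 of the αGal groups. Kdr and Dcn were each at 0 counts in 8 libraries, while Pecam1 had 14 to 53 counts in every library. No tested gene of the lymphocyte, myeloid or endothelial and fibroblast lists was called in any comparison. Only 5 of the 11, 8 of the 10 and 3 of the 8 passed the filter to be tested, and Ms4a1 and Cd3e were not among them. Of the 7 epithelial markers, 1 was called in any comparison, the keratin Krt18, which was 0.54 higher on the log2 scale at 72 h than at 18 h (edgeR adjusted p = 0.0297), and the brush border protein Vil1 had -0.86 (edgeR adjusted p = 0.0629) with all 72h-αGal libraries below those at 18 h. The part of other cells or of these markers in the results was not tested. In these bulk samples fewer cells of a type and less RNA per cell cannot be told apart.

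Control replicate 3, the shallowest library, stood apart, at -46.15 on the second principal component against 0.01 to 14.62 in the other 8 libraries. It had the highest control value for 7 of the 8 genes, against 36.8% of all tested genes. Relative to the mean of the other controls it was 3.56-fold for Parp14, 2.61-fold for Parp9, 2.20-fold for Dtx3l and 1.93-fold for Parp12. Such a ratio of 2 or more was reached by 3 of the 8 genes and by 8.51% of 18880 tested genes with a ratio. The same library was 2.92-fold for Stat2, a transducer of interferon signals. The calls at 18 h are therefore given with and without it, and the cause of its difference was not tested. Since it was singled out partly by its values for these genes, the fits without it are no independent support. Leaving out the highest control of a gene raises the fitted change at 18 h in any case.

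At 18 h after αGal, Parp3, Parp11, Parp12 and Dtx3l rose 2.26- to 3.43-fold over control, and Parp9 and Parp14 had fitted changes of like size that did not pass the test with all 3 controls. With edgeR's quasi-likelihood test and Benjamini-Hochberg adjustment, 4 of the 8 genes were called higher at an adjusted p under 0.05, against 3.27% of all tested genes called higher, and none lower. All 8 fitted changes were positive, with a median log2 fold change of 1.33 against -0.03 over all tested genes. The 3 libraries of 18h-αGal lay above all 3 controls for 6 of the 8 genes, all but Parp8 and Parp10, against 11.5% of tested genes. Without control replicate 3, 7 of the 8 were called higher, all but Parp8, against 4.25% of tested genes. DESeq2 with all 9 libraries called 5, the same 4 and Parp9, against 3.55%.

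At 72 h none of the 8 was called against control by edgeR, DESeq2 or limma, with 2 at an unadjusted p under 0.05 by edgeR, where 0.0264% of tested genes were called and 5.94% had an unadjusted p under 0.05. Against 18h-αGal, Parp3, Parp9, Parp11, Parp12 and Dtx3l were called lower at 72 h, 5 of the 8 against 6.04% of tested genes, and the 72h-αGal libraries lay below all 18h-αGal libraries for 7 of the 8, all but Parp8, against 16.3%. Parp14 joined the 5 without control replicate 3, against 7.49% of tested genes called lower, and also by DESeq2 with all libraries, against 6.71%. The median log2 difference between 72 h and 18 h was -1.28 over the 8 genes and 0.05 over all tested genes.

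**Figure D2:**
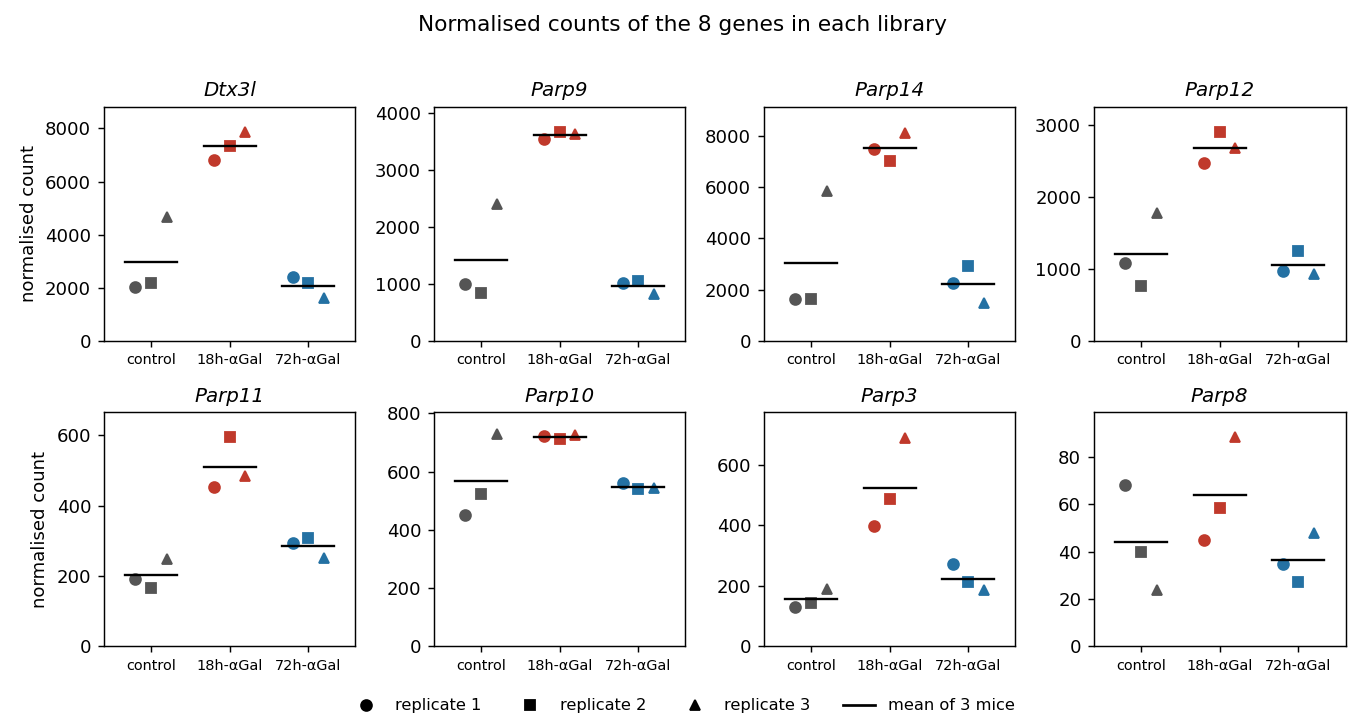
Normalised counts (raw counts over the library's size factor, y axis from 0) of each of the 8 genes in the 9 libraries by group, with a marker shape for each replicate number and a black bar for the mean of 3 mice. The 18h-αGal libraries lie above all controls for every gene but Parp10 and Parp8, and control replicate 3 is the highest control for every gene but Parp8.

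Dtx3l is a ubiquitin ligase of the Deltex family that works in a complex with Parp9. Its normalised counts were 2045, 2193 and 4664 in control replicates 1 to 3, 6828, 7330.0 and 7849.5 in 18h-αGal, and 2406, 2183 and 1601 in 72h-αGal. The 18h-αGal libraries were the highest, with no overlap with either other group, and the 72h-αGal range overlapped that of the controls. The mean was 2967 ± 1472 (SD, n = 3) in control, 7336 ± 511 at 18 h and 2063 ± 415 at 72 h. Dtx3l rose 2.50-fold at 18 h, or 1.32 ± 0.305 (SE) on the log2 scale (edgeR adjusted p = 0.042). The call was kept in 8 of 18 alternatives. It was lost with no filter on low counts (edgeR adjusted p = 0.102), with only the compared groups in the fit (0.0585) and with the replicate block (0.0718). It was also lost without any one of control replicates 1 and 2, the 18h-αGal replicates and 72h-αGal replicates 1 and 2, with edgeR adjusted p of 0.0631 to 0.131, while without control replicate 3 the change was 1.79 with an adjusted p of 2.07e-06. From 18 h to 72 h Dtx3l fell by 1.82 ± 0.309 on the log2 scale (edgeR adjusted p = 0.00866), a call kept in all 18 alternatives.

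Parp9 carries macrodomains that bind ADP-ribose. In normalised counts it stood at 999.6, 844 and 2404 in the controls, 3556, 3668 and 3637 in 18h-αGal, and 1011, 1057 and 829 in 72h-αGal. All 18h-αGal values lay above every other library, and control replicate 3 was the only library between the levels of the 18 h group and those of the rest. At 18 h the log2 change was 1.38 ± 0.356 (edgeR adjusted p = 0.0638), and 1.97 ± 0.142 (edgeR adjusted p = 2.69e-07) without control replicate 3. By DESeq2 with all 9 libraries it was 1.36, with an adjusted p of 6.92e-05. Of 18 alternatives 4 called Parp9 at 18 h and 14 did not. Between 18 h and 72 h Parp9 fell by 1.90 ± 0.360 on the log2 scale (edgeR adjusted p = 0.0154). That call was lost, with adjusted p of 0.0527 to 0.0846 by edgeR, without 18h-αGal replicate 2 or 3 or any 72h-αGal replicate.

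The normalised count of Parp9 was 0.385 to 0.521 of that of Dtx3l in each of the 9 libraries, although both genes varied more than 4-fold among them. The log2 ratio was -1.12 ± 0.224 (SD, n = 3) in control, -1.02 ± 0.0857 in 18h-αGal and -1.08 ± 0.153 in 72h-αGal. These ratios overlapped in range. The differences were 0.11 at 18 h (exact two-sided permutation p = 0.6), 0.04 at 72 h (exact p = 0.8) and -0.07 between the time points (exact p = 0.6), where 3 against 3 libraries cannot give a p below 0.1.

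Parp14, the third gene of the cluster, encodes a large mono-ADP-ribosyltransferase with macrodomains that is known as a partner of Stat6. The libraries gave normalised counts of 1635, 1648 and 5841 in the controls, 7500.2, 7006 and 8132 in 18h-αGal, and 2275, 2912 and 1485 in 72h-αGal. The 18h-αGal libraries were again the highest without overlap, but control replicate 3 lay nearer to them than to the other controls. The control mean of 3041 had an SD of 2425 (n = 3), while the 18h-αGal mean was 7546 ± 565. At 18 h the log2 change was 1.33 ± 0.548 (edgeR adjusted p = 0.234), and without control replicate 3 it was 2.20 ± 0.226 (edgeR adjusted p = 0.000157). Of 18 alternatives, this was the only 1 that called Parp14 at 18 h, and 4 called it between the time points. Between 18 h and 72 h the log2 difference was -1.76 ± 0.554 (edgeR adjusted p = 0.107), and -1.75 (edgeR adjusted p = 0.000191) without control replicate 3, whose spread enters the estimate shared by all groups. Stat6 itself had a log2 change of -0.06 ± 0.120 at 18 h (edgeR adjusted p = 0.85).

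Parp12 is a zinc-finger mono-ADP-ribosyltransferase related in structure to the antiviral protein Zc3hav1. Normalised counts of Parp12 were 1073, 763 and 1769 in the controls, 2469, 2899.7 and 2669.9 in 18h-αGal, and 973, 1242 and 924 in 72h-αGal. The lowest 18h-αGal library was above the highest control, and the 72h-αGal range lay within the control range. Parp12 rose 2.26-fold at 18 h, a log2 change of 1.18 ± 0.245 (edgeR adjusted p = 0.0182). The call was lost without control replicate 1 (edgeR adjusted p = 0.0870), 18h-αGal replicate 2 (0.0794) or 18h-αGal replicate 3 (0.0571), and without control replicate 3 the change was 1.54 (3.93e-05). Parp12 then fell by 1.35 ± 0.246 on the log2 scale to 72 h (edgeR adjusted p = 0.0065), a call kept in all 18 alternatives.

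Parp11 is a mono-ADP-ribosyltransferase of the same branch of the family, and the only matched gene with both motif cores in a promoter window printed above. For it the normalised counts were 192, 167 and 249.6 in the controls, 451, 594 and 483 in 18h-αGal, and 293, 309 and 252 in 72h-αGal. The 3 groups did not overlap, with control lowest, 72h-αGal between and 18h-αGal highest, although the gap between the highest control and the lowest 72h-αGal library was small. Parp11 rose 2.55-fold at 18 h, a log2 change of 1.35 ± 0.217 (edgeR adjusted p = 0.0024), and was called in all 18 alternatives, with 1.503 (0.000786) without control replicate 3. At 72 h it was 0.52 ± 0.216 above control on the log2 scale, which did not pass (edgeR adjusted p = 0.826), and it was the only one of the 8 whose 72h-αGal libraries all lay above the controls, against 6.36% of tested genes. The fall of 0.83 ± 0.212 from 18 h to 72 h was called (edgeR adjusted p = 0.0218), but not without 18h-αGal replicate 2 or any 72h-αGal replicate, with adjusted p of 0.0545 to 0.113 by edgeR.

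Parp10 is a mono-ADP-ribosyltransferase with a smaller difference than the genes above. It had normalised counts of 452, 522 and 729.9 in the controls, 724, 711 and 724 in 18h-αGal, and 561, 542 and 542 in 72h-αGal. The treated groups were tight, with SDs of 7.32 at 18 h and 10.8 at 72 h (n = 3 each) against 144 in the controls, where replicate 3 was above every 18h-αGal library. At 18 h the log2 change was 0.36 ± 0.176 (edgeR adjusted p = 0.259), and 0.57 ± 0.167 (edgeR adjusted p = 0.0494) without control replicate 3, the only alternative that called it. The 72h-αGal libraries lay below all 18h-αGal libraries, with a log2 difference of -0.39 ± 0.175 that did not pass (edgeR adjusted p = 0.19).

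Parp3, which acts in the repair of DNA breaks, had the largest fold change of the 8 at 18 h with all 9 libraries. Its normalised counts were 130.4, 144 and 190.2 in the controls, 398, 486 and 687 in 18h-αGal, and 271, 214 and 187 in 72h-αGal. Every 18h-αGal value was above every value of the other groups, and the 72h-αGal range overlapped the controls at its lower end. Parp3 rose 3.43-fold, a log2 change of 1.78 ± 0.257 (edgeR adjusted p = 0.00136), and was called in all 18 alternatives, with 1.93 (0.000484) without control replicate 3. It fell by 1.22 ± 0.250 on the log2 scale from 18 h to 72 h (edgeR adjusted p = 0.00704), again in all 18 alternatives. At 72 h the log2 difference from control was 0.56 ± 0.255 (edgeR adjusted p = 0.827).

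Parp8, a little studied family member, had the lowest counts of these genes, with 10 to 116 raw counts a library. Its normalised counts were 68.1, 39.9 and 23.8 in the controls, 44.8, 58.4 and 88.3 in 18h-αGal, and 34.8, 27.2 and 47.8 in 72h-αGal. All 3 groups overlapped. The log2 change was 0.50 ± 0.511 at 18 h (edgeR adjusted p = 0.647) and -0.78 ± 0.514 between 18 h and 72 h (edgeR adjusted p = 0.393). No alternative called either, and the parts of depth and of the spread between mice in this were not tested.

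**Figure D3:**
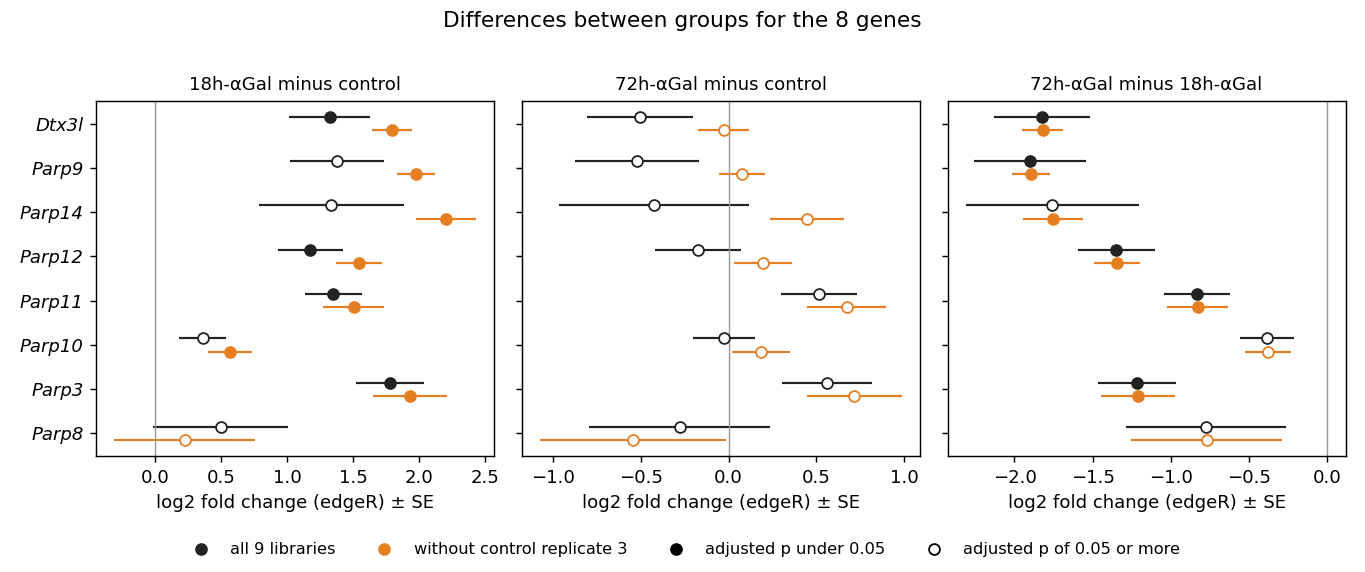
Log2 fold changes by edgeR (x axis) of the 8 genes in the 3 comparisons, with bars of ± SE, black for the fit to all 9 libraries and orange for the fit without control replicate 3; filled points have an adjusted p under 0.05. Leaving out control replicate 3 moves Parp9 from 1.38 to 1.97 and Parp14 from 1.33 to 2.20 at 18 h. The differences between 72 h and 18 h stay nearly in place, since no control library enters the group means they compare.

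At 72 h, leaving out control replicate 3 also turned the sign of 4 log2 differences from control that had not passed, those of Parp9 (-0.52 to 0.077), Parp10 (-0.02 to 0.18), Parp12 (-0.17 to 0.20) and Parp14 (-0.42 to 0.45). None of the 4 passed either way, with an edgeR adjusted p of 1 for each without that library. No direction is read from them.

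The profile of the 8 genes over the 9 libraries was shared to unequal degrees. Pearson's r of each gene's log2 CPM with the mean of the others was 0.964 for Parp12, 0.962 for Parp9, 0.957 for Dtx3l, 0.928 for Parp14, 0.903 for Parp3, 0.882 for Parp11 and 0.841 for Parp10, against 0.282 for Parp8. The 9 points share their library and group, and 3 of them stand apart at 18 h, so these values describe the groups as much as the genes. Among 10897 other tested genes with a mean normalised count of at least 100, the 10 whose profiles were most like the mean of the 8 were Ctsz (r = 0.996), Tap1 (0.994), Igtp (0.993), Psme1 (0.989), B2m (0.989), Nudt5 (0.988), Samhd1 (0.988), Psmb9 (0.987), Shisa5 (0.987) and Irgm2 (0.987). Tap1, Psme1, B2m and Psmb9 are known for antigen presentation on MHC class I, and Igtp and Irgm2 are immunity-related GTPases.

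Apart from the ratio of Parp9 to Dtx3l, which was not scaled by length, levels were compared between genes only as CPM per kb of exon. In control libraries Dtx3l was highest at 26.6 ± 12.96 (SD, n = 3), followed by Parp14 at 16.3 ± 12.8, Parp9 at 14.5 ± 8.65 and Parp12 at 14.2 ± 5.96, and these 4 neighbours overlapped in range. Parp10 at 6.82 ± 1.68, Parp3 at 2.09 ± 0.405, Parp11 at 0.811 ± 0.163 and Parp8 at 0.176 ± 0.0906 followed, each below the range of the one before. With the longest transcript as length in place of all exons, the control ranges of Parp3 (2.26 to 3.26) and Parp11 (1.78 to 2.62) overlapped. At 18 h the order was the same, with Dtx3l at 66.3 ± 4.003, Parp14 at 40.8 ± 2.82, Parp9 at 37.3 ± 0.458 and Parp12 at 31.9 ± 2.47, now without overlap between neighbours, although with the longest transcript as length Parp14 (48.3 to 55.4) and Parp9 (50.7 to 51.9) overlapped. Below them the ranges of Parp10 (8.70 ± 0.113) and Parp3 (7.09 ± 1.94) overlapped at 18 h through 18h-αGal replicate 3, where Parp3 was at 9.22, while the other 2 libraries had Parp3 at 5.45 and 6.59. At 72 h Dtx3l (18.7 ± 3.66), Parp12 (12.5 ± 1.99), Parp14 (12.1 ± 3.82) and Parp9 (9.995 ± 1.19) overlapped again as neighbours. Parp11 reached 2.05 ± 0.300 and Parp8 0.256 ± 0.0871 at 18 h on this scale, still the lowest of the 8.

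**Figure D4:**
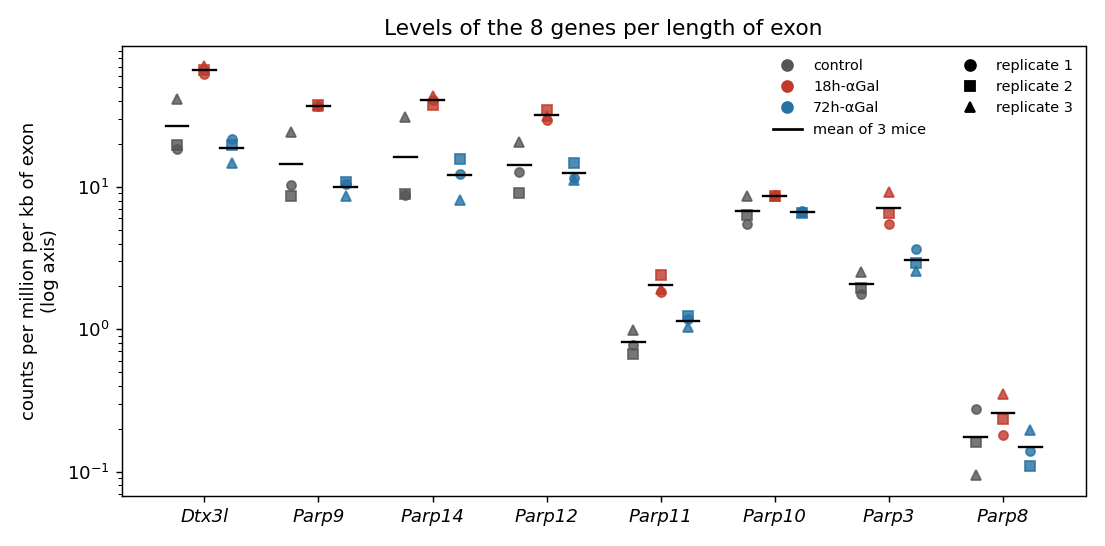
CPM per kb of exon (log axis) of the 8 genes in every library, coloured by group, with a marker shape for each replicate number and a black bar for the mean of 3 mice. Dtx3l, Parp9, Parp14 and Parp12 lie above the other 4 genes in every group, and Parp8 is the lowest throughout.

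The other 9 measured PARP genes differed from control at 18 h in 1 case. Zc3hav1, which binds viral RNA and is catalytically inactive, had normalised counts of 2576, 2086 and 3026 in control, 4155, 4346 and 4378 in 18h-αGal, and 2672, 2623 and 2229 in 72h-αGal. Its 18h-αGal libraries lay above all others, and it rose by 0.75 ± 0.130 on the log2 scale (edgeR adjusted p = 0.00378) and fell by 0.77 ± 0.130 to 72 h (edgeR adjusted p = 0.00224). Without control replicate 3 the 18 h change was 0.88 (edgeR adjusted p = 0.000467), and it was still the only call among the 9. None of the other 8 passed at 18 h, with edgeR adjusted p of 0.262 to 0.955. Their log2 changes were 0.22 for Parp1 and -0.22 for Parp2, which respond to DNA damage, 0.22 for the vault protein Parp4, 0.03 for Parp6, 0.34 for Parp16 of the endoplasmic reticulum, and -0.29 for Tiparp, a target of the aryl hydrocarbon receptor. The tankyrases Tnks and Tnks2, which act on axin in Wnt signalling, had log2 changes of -0.12 and 0.20. The median of the 9 was 0.20 at 18 h and 0.03 between 72 h and 18 h. As for every gene list given here, none of the 9 was called at 72 h against control.

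A list of 15 tested genes for enzymes that remove or proteins that read ADP-ribose, such as Parg and the macrodomain hydrolases, gave 0 calls by edgeR in each comparison. Its median log2 change at 18 h was -0.08. The lowest edgeR adjusted p of the list was 0.0951 at 18 h, for Gdap2 with a log2 change of 0.52. Between the time points it was 0.0885, for Macrod1 with a log2 difference of 0.96. Nudt5, named above for its profile (r = 0.988), was not on this list. The other Deltex ligases likewise gave 0 calls among 3 tested genes of 4. Among 14 tested genes of NAD+ synthesis and salvage, of 16 listed, Nampt, the rate-limiting enzyme of the salvage route, was the only one called at 18 h with all libraries. Without control replicate 3 the NAD+ kinase Nadk was called as well, with a log2 change of 0.52 (edgeR adjusted p = 0.0164) against 0.40 (0.0748) with it. Nampt had normalised counts of 1239, 868 and 1182 in control, 3185, 3143 and 3146 in 18h-αGal, and 912, 988 and 821 in 72h-αGal, so the 18 h libraries were clear of the rest. Nampt rose by 1.54 ± 0.140 on the log2 scale (edgeR adjusted p = 5.15e-05), or by 1.58 (9.63e-06) without control replicate 3, and fell by 1.79 to 72 h (edgeR adjusted p = 2.08e-05). Between 18 h and 72 h Nmnat1, which makes NAD+ in the nucleus, fell by 0.75, Nadk fell by 0.61 and the nicotinamide riboside kinase Nmrk1 was 0.89 higher on the log2 scale, with edgeR adjusted p of 0.0458, 0.00693 and 0.0279. The calls of Nampt and Nadk between the time points held in all 18 alternatives. That of Nmnat1 held in 10, and was lost with upper-quartile scaling, with the replicate block and without control replicate 1 or 2, 18h-αGal replicate 2 or 3 or 72h-αGal replicate 2 or 3, with an edgeR adjusted p of up to 0.212. That of Nmrk1 held in 12, and was lost with the replicate block and without any 18h-αGal replicate or 72h-αGal replicate 2 or 3, with an edgeR adjusted p of up to 0.132. Of 9 tested genes for other consumers of NAD+, of 11 listed, Cd38, an NAD+ hydrolase, fell by 0.63 ± 0.109 on the log2 scale at 18 h (edgeR adjusted p = 0.00414), and by 0.65 (0.00283) without control replicate 3. Cd38 was 0.44 higher at 72 h than at 18 h (edgeR adjusted p = 0.0195), a call lost without 18h-αGal replicate 2 or 72h-αGal replicate 1 or 2 (up to 0.101), and no sirtuin was called.

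Of 17 genes of interferon receptors, Janus kinases, STAT and IRF factors, 2 were called higher at 18 h and none lower, against 3.27% of all tested genes called higher, with a median log2 change of 0.17. Without control replicate 3, 5 were called higher against 4.25%, Irf1, Irf8, Stat2, Irf7 and Stat3. Irf8 rose by 1.39 ± 0.199 on the log2 scale (edgeR adjusted p = 0.00204) and Irf1, a transcription factor induced by interferon-γ, by 0.76 ± 0.164 (0.0135), and without control replicate 3 by 1.62 (6.26e-05) and 0.87 (0.00537). The call of Irf1 was lost without control replicate 1 or 18h-αGal replicate 2, with an edgeR adjusted p of up to 0.0763. Stat2 had a log2 change of 1.70 ± 0.433 that did not pass (edgeR adjusted p = 0.067), and 2.38 (edgeR adjusted p = 7.42e-07) without control replicate 3. Irf9, the DNA-binding subunit of the ISRE complex, had 0.39 ± 0.153 (edgeR adjusted p = 0.153), and 0.51 (0.0638) without that library. Irf7, a further interferon-induced factor, went from 0.58 (edgeR adjusted p = 0.255) to 1.0001 (0.00224) and Stat3 from 0.36 (0.205) to 0.52 (0.0484) when it was left out. Stat2 moved with control replicate 3 as Parp9 and Parp14 did, at 597, 599.9 and 1747 normalised counts in the controls against 2699 to 3492 at 18 h. Between 18 h and 72 h, 5 of the 17 were called lower, Stat2 (-2.02), Irf8 (-1.42), Irf1 (-0.77), Stat3 (-0.52) and Jak2 (-0.49), and none higher, against 6.04% of all tested genes called lower. The calls of Irf8 and Irf1 held in all 18 alternatives. Those of Stat2, Jak2 and Stat3 held in 10, 10 and 6, and each was lost with the replicate block, with edgeR adjusted p over the alternatives of up to 0.130, 0.161 and 0.177. Stat2 was lost without any 18h-αGal or 72h-αGal library. Jak2 was lost without control replicate 1, 18h-αGal replicate 1 or 3 or any 72h-αGal library, and Stat3 without any library but control replicate 3.

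**Figure D5:**
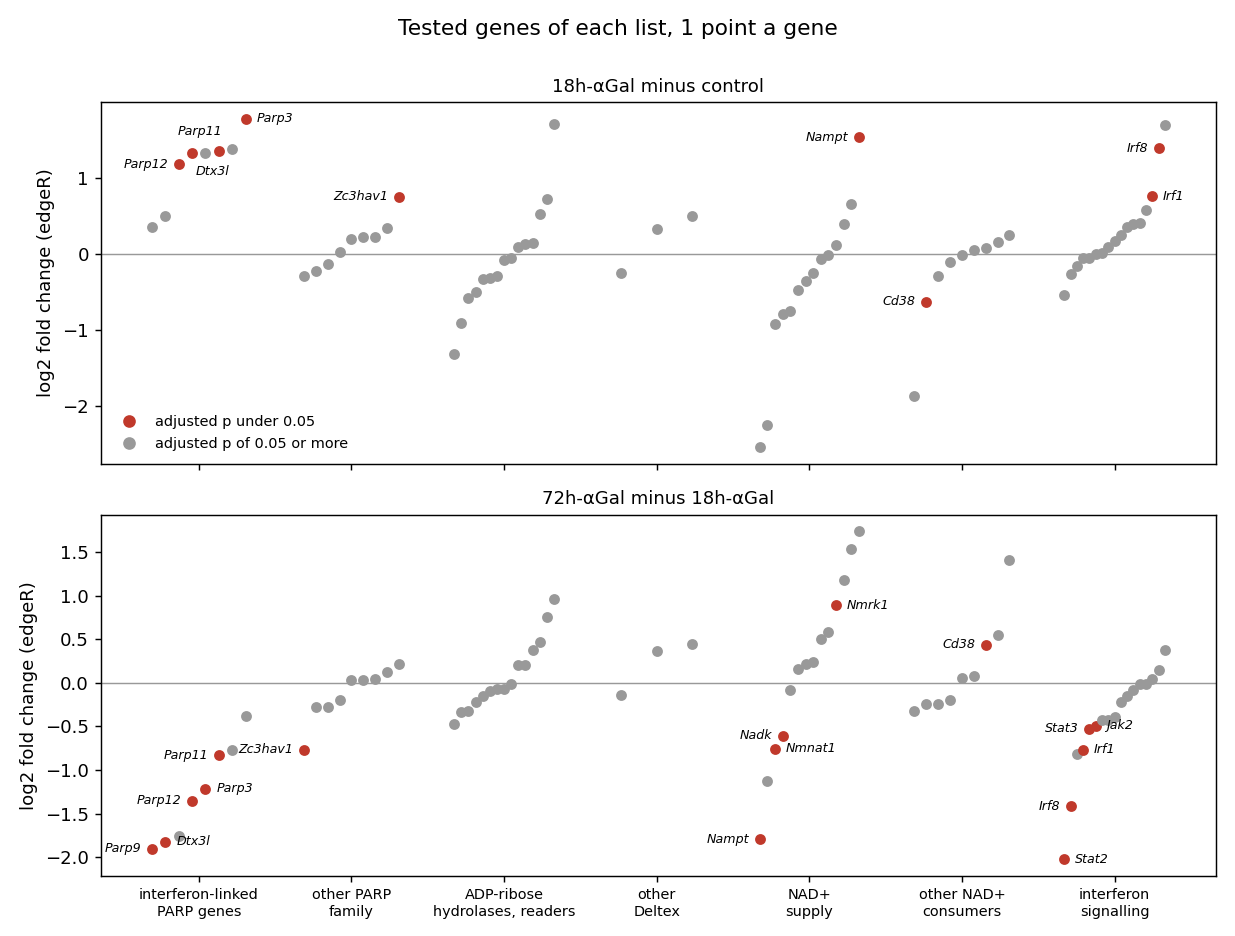
Log2 fold changes by edgeR (y axis) of all tested genes of 7 lists, 1 point a gene sorted within its list, for 18h-αGal minus control (top) and 72h-αGal minus 18h-αGal (bottom); red points are named and have an adjusted p under 0.05. The 8 interferon-linked PARP genes all lie above 0 at the top and below 0 at the bottom, while of the other 9 PARP genes only Zc3hav1 is red.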

How the data were processed

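Bulk RNA-seq libraries, 1 per mouse, were made with a directional ribodepletion kit, and the reads were mapped with HISAT2. The study's methods name GRCm39, whereas the submitters' processing notes name GRCm38 and mm10 together with featureCounts of Subread; annotation release and strand setting are not given in the sources used here. The authors deposited raw counts per gene. They also deposited normalised counts, a signal equal to the raw count over 1 factor per library (largest relative difference 5.06e-15); these factors matched DESeq2 size factors within 8.88e-16. Gene symbols, positions and exon lengths came from GENCODE M39, which matched 28480 of the 29288 identifiers and 98.4% of counts.

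Counts of all 9 libraries (8887861 to 32722293 in total) were fitted in edgeR 4.0.16 under R 4.3.3, with filterByExpr, TMM, a robust quasi-likelihood fit (common dispersion 0.123) and Benjamini-Hochberg adjustment over 18933 genes; a gene was called at an adjusted p under 0.05. The edgeR p-values set the difference between groups against the spread between these mice, estimated over all groups and moderated across genes. Ratios were compared by exact permutation over libraries. Levels were CPM per kb of the union of exons. DESeq2 1.42.0, limma 3.58.1 (log2 of normalised count plus 1), other scalings, other filters, only the compared groups, no robust estimation, a replicate block and leaving out each library were alternatives, 18 in all. Deviations of same-numbered libraries were little correlated, the main fit had no replicate block, and a batch shared by number was not tested. No 2 libraries of a group agreed within sampling noise. The genes named were the 8 members, called genes of the lists, all other PARP genes, Stat2, Stat6, Irf1 and Irf9, and the 10 genes of most similar profile. The members and lists were chosen with earlier results of these data known, and 1 gene of the lists is not reported here.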

Additional observations from a re-analysis of the deposited data

Results flagged for a closer look

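The αGal groups at 18 h and 72 h share their controls, so their differences from control differ by the direct difference between the time points. With no PBS mice at 72 h, this difference cannot be told apart from one of sampling time alone. It passed edgeR's quasi-likelihood test for 5 of the 8 genes, all lower at 72 h, where 6.04% of all tested genes were called lower. On the log2 scale, 72 h minus 18 h, it was -1.22 for Parp3, -1.90 for Parp9, -0.83 for Parp11, -1.35 for Parp12 and -1.82 for Dtx3l, with the 3 libraries at 72 h below the 3 at 18 h for each. The same test of the time points called 11 of 67 tested genes of the other lists in either direction, against 1936 of all 18933 tested genes. The difference was -0.77 for Zc3hav1, -1.79 for Nampt, -0.75 for Nmnat1, -0.61 for Nadk, -0.49 for Jak2, -2.02 for Stat2, -0.52 for Stat3, -0.77 for Irf1 and -1.42 for Irf8. It was 0.89 for Nmrk1 and 0.44 for Cd38, the only genes of these lists called higher at 72 h than at 18 h.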

How the results depend on the processing

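The count of the 8 genes called at 18 h was 4, and 2 to 7 when each library was left out in turn, 7 without control replicate 3 and 2 without control replicate 1, 18h-αGal replicate 2 or 18h-αGal replicate 3. For 72 h against 18 h it was 5, and 3 to 6 over the same omissions. Calls in the other lists were 5 at 18 h (4 to 9, the highest without control replicate 3) and 11 between the time points (5 to 12), and 6 with the replicate block. Same-numbered libraries deviated together little (9 correlations of -0.150 to 0.115). The highest was between control replicate 3 and 18h-αGal replicate 3, and a batch shared by number was not tested. With the block Dtx3l was no longer called at 18 h (edgeR adjusted p = 0.0718). Calls over all genes went from 1128 to 781 at 18 h, 5 to 1 at 72 h and 1936 to 1371 between the time points. Calls over all genes ranged from 432 without 18h-αGal replicate 2 to 1657 by DESeq2 at 18 h, from 0 to 30 (DESeq2) at 72 h, and from 831 without 72h-αGal replicate 3 to 2593 without control replicate 3 between the time points; 593 at 18 h with only the compared groups in the fit. The sign at 72 h against control, never called, turned to 0.20 for Parp8 without control replicate 1, and without control replicate 3 to 0.077 for Parp9, 0.18 for Parp10, 0.20 for Parp12 and 0.45 for Parp14; the other ends of their ranges over left-out libraries were -0.54, -0.78, -0.16, -0.41 and -0.72. Of 432 log2 values of the 8 genes under the alternatives, 395 kept direction and side of the threshold. With the longest transcript as length, control levels moved to 2.68 for Parp3, 0.320 for Parp8, 8.57 for Parp10 and 2.15 for Parp11. No alternative called Parp8, whose counts are the lowest. Causes of these changes were not tested.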
